A study of Mus musculus with 36 samples.

Results

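The genes described here encode the proteasome, its inducible form, the immunoproteasome, and the factors that assemble and regulate it. They were taken by symbol: Psm, a letter from a to g and a number, leaving out pseudogene symbols. The pattern matched 51 symbols in each of 4 deposited tables of TPM values (transcript abundance corrected for transcript length and scaled to a common total), the largest of which lists 56923 genes. A gene was kept where its mean over the table was at least 1 TPM, which left 49 genes in every table; Psma8 and Psmb11, subunits known from testis and thymus, fell below that level. The 49 comprised 5 inducible genes, 41 constitutive subunits, chaperones and regulators, and 3 genes with another role (Psmc3ip, Psme2b and Psme3ip1).

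The proteasome is the protease of the cytosol and nucleus that degrades ubiquitin-tagged proteins. Its barrel-shaped core is made of outer rings of alpha subunits (Psma genes) and inner rings of beta subunits (Psmb genes), of which Psmb5, Psmb6 and Psmb7 carry the active sites. A regulatory particle with a ring of ATPases (Psmc genes) and a lid and base of other subunits (Psmd genes) binds and unfolds the tagged substrate. Interferon-gamma and constitutive activity in lymphocytes supply a second set of catalytic subunits, Psmb8, Psmb9 and Psmb10, which replace Psmb5, Psmb6 and Psmb7 in new particles and alter the peptides produced for MHC class I. Psme1 and Psme2 encode the alpha and beta subunits of the activator PA28, also interferon-inducible. Natural killer (NK) cells read MHC class I on other cells through inhibitory receptors, among them Ly49C, Ly49I and the NKG2A receptor, and B2m is the light chain that class I molecules need to reach the surface.

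RNA-seq was made from 36 libraries of mouse NK cells in 12 groups of 3, which the labels call biological replicates; they give no age. The subset table holds 18 libraries of splenic CD27-CD11b+ NK cells from wild-type (WT, B2m+/+) C57BL/6 mice and B2m-/- mice. In each genotype these cells were sorted as triple positive (TP, Ly49C+Ly49I+NKG2A+), single positive (SP, Ly49C-Ly49I+NKG2A-) or triple negative (TN, Ly49C-Ly49I-NKG2A-). The ionomycin table holds NK cells sorted from WT splenocytes after 22 hours of culture with vehicle or ionomycin, an ionophore that lets calcium into cells. The antibody table holds splenic WT NK cells after 48 hours in medium, with plate-bound anti-NKp46 and anti-NKG2D, or with plate-bound anti-NKp46 plus anti-DNAM-1; all 3 target activating receptors. The tumour table holds 1 group, CD27-CD11b+ NK cells taken on day 10 from subcutaneous MC38 colon carcinoma tumours lacking B2m. Their mice are labelled WT and their title names no Ly49 or NKG2A gate, while the column names carry a B2m-knockout name and the letters SP. In the antibody table the titles and the column names disagree for 6 of 9 samples; groups follow the column names, and values under the titles are given beside the leading antibody results. The column names number the samples 1 to 3 in each group of the subset, ionomycin and antibody tables. The labels do not say whether a number marks the same mouse across groups of 1 genotype. The main fits are without pairing.

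TPM carry no read depth, so the depth behind each value is unknown; the number of genes above 0 was 12290 to 14501 in the subset table and 13904 to 15483 in the ionomycin table. It was 13555 to 14674 in medium but 16107 to 18096 with antibodies, and 14155 to 16271 in the tumour table. All 8 NK marker genes were above 0 in every group. They summed to 17887 to 21417 TPM per library among the subsets, 10831 to 12475 TPM in the antibody table and 9840 to 10612 TPM in tumours. In the ionomycin table it was 13995, 13646 and 7557 TPM with vehicle and 5616 to 7206 with ionomycin. Neutrophil markers summed to 377 TPM in vehicle replicate 3, 120 in ionomycin replicate 3 and 61.0 to 217 in the B2m-/- TP libraries, against at most 5.85 in the other libraries of the subset and ionomycin tables. No 2 libraries were identical.

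The sequences below show the 250 bases before the annotated start. They are for 1 inducible gene, its constitutive counterpart and 2 of the alpha subunits leading the antibody results. They are RefSeq sequences on mouse build GRCm38.p6, not the GRCm39 of the deposited files, written 5′ to 3′ on the gene's strand. Of the 49 genes, 42 had an entry. Psmb8 (chr17:34197945-34198194, plus strand) has in capitals TTCNNNGAA, the core recognised by STAT factors, 97 to 89 bases before the start. Psmb5 (chr14:54617996-54618245, minus strand) has in capitals TGACNNNGC, the core of the antioxidant response element read by NRF factors, 47 to 39 bases before the start. Psma7 (chr2:180042465-180042714, minus strand) has in capitals CCAAT, the box bound by NF-Y, 196 to 192 bases before the start. Psma1 (chr7:114276117-114276366, minus strand) has a CCAAT box 98 to 94 bases before the start, and its reverse complement 126 to 122 bases before it, both in capitals.
Psmb8: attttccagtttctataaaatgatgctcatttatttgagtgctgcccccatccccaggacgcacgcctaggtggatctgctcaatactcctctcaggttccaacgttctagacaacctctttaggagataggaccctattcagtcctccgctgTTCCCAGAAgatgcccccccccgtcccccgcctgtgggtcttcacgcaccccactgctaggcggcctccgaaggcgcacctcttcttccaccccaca
Psmb5: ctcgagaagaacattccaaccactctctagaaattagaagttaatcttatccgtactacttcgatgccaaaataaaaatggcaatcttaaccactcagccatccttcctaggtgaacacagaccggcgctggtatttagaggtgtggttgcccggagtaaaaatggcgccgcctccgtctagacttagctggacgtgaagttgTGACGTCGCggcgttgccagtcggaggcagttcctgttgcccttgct
Psma7: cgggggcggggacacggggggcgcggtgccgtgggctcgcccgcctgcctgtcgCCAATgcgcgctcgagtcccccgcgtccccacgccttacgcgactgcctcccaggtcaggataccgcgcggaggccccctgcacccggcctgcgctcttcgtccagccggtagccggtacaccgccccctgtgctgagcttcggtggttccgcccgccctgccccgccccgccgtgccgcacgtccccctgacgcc
Psma1: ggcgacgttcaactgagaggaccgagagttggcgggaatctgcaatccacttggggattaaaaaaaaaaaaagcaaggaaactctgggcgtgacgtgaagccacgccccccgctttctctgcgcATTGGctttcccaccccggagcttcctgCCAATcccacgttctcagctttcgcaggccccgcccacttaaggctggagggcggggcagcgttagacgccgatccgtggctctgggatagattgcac
Each motif was searched on both strands, in 46 windows of these genes and in 32851 windows of all promoters. The antioxidant core was in 5 of the 46 windows (10.9%) against 10.2% of all: those of Psmb5, Psmb6, Psmc6, Psmd12 and Psmd9. CCAAT was in 15 (32.6%) against 33.8%. TTCNNNGAA was in 2 (4.35%), Psmb8 and Psmg1, against 7.02%. GAAANNGAAA, an interferon regulatory factor element, was in 3 (6.52%), Psmb3, Psmd4 and Psmd9, against 2.98%. None of these 3 is an inducible gene. These shares describe letters in a short window and not binding.

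The inducible genes stood among the most abundant members of the family in resting NK cells. Over the 18 subset libraries, Psme1 (ENSMUSG00000022216) was first of the 49, with a mean of 588 TPM (452 to 703), above 98.1% of the 12018 genes tested in that table. Psmb8 (ENSMUSG00000024338) followed at 305 TPM (250 to 378), then the structural beta subunit Psmb4 at 276, Psmb10 (ENSMUSG00000031897) at 246 (170 to 323), Psmb3 at 224 and Psme2 (ENSMUSG00000079197) at 224 (162 to 298). The ranges of the genes from Psmb8 to Psme2 overlap, so their order within that stretch is not resolved, whereas every Psme1 value lay above every value of the other members. Psmb9 (ENSMUSG00000096727) was at 142 TPM (108 to 222), beside Psmd8 at 145 and Psmb6 at 135. Their ranges overlap too.

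The medians over genes were 246 TPM for the 5 inducible genes and 90.3 TPM for the 41 constitutive ones. Of all 49, 43 lay above 28.6 TPM, the median of the genes tested. By role, the medians were 170 TPM for the structural beta subunits, 134 for the non-ATPase subunits of the base (Psmd1, Psmd2 and Psmd4), 111 for the alpha ring and 104 for the ATPases. The 3 constitutive catalytic subunits had a median of 90.3 TPM and the 8 lid subunits one of 84.7 TPM. The assembly chaperones, which guide the building of the rings and leave the finished particle, were lowest at 25.3 TPM. Their values also varied most between replicates among the larger role groups: the median coefficient of variation within groups was 22.6% for chaperones, 11.6% for all constitutive genes and 12.1% for the inducible ones. Psmc3ip, a meiotic recombination factor matched by the symbol pattern and not counted as a subunit, was last at 3.97 TPM, with a coefficient of variation of 67.0%.

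**Figure D1:**
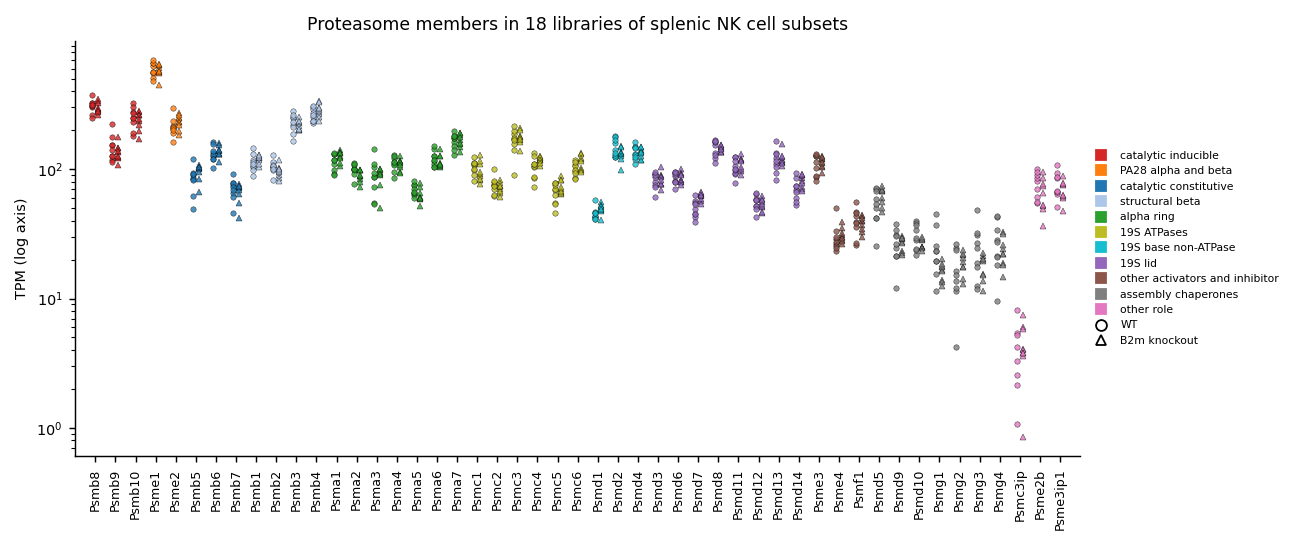
TPM on a log axis for each of the 49 genes, grouped by role (colour), in 18 libraries of the subset table; circles are WT and triangles B2m-/- libraries. Psme1 lies at the top with 452 to 703 TPM, and the chaperones Psmg1 to Psmg4 and Psmc3ip lie at the bottom.

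Psme1, Psme2 and Psmb8 led in the ionomycin and antibody tables, each of which was scaled on its own, so levels are not compared across tables. The means were Psme1 437, Psme2 334 and Psmb8 250 TPM in the ionomycin table and Psme1 492, Psme2 451 and Psmb8 316 TPM in the antibody table. The inducible medians were 250 and 316 TPM, against constitutive medians of 104 and 118 TPM. The other inducible genes did not lead there. Psmb9 and Psmb10 had means of 132 and 87.7 TPM in the ionomycin table, at ranks 14 and 28 of 49, and of 117 and 126 TPM in the antibody table, at ranks 26 and 23.

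Set against its constitutive counterpart in the same library, Psmb8 exceeded Psmb5 in all 36 libraries. The TPM ratio Psmb8/Psmb5 was 2.68 at its lowest and 6.10 at its highest among the freshly sorted subsets. It spanned 2.61 to 6.55 in the vehicle and ionomycin libraries, 2.83 to 4.62 in those of the antibody table and 2.45 to 3.32 in tumours. For the pair Psmb9/Psmb6 the subset range was 0.732 to 1.85, so either transcript could be the more abundant. That ratio spanned 0.814 to 1.88 in the vehicle and ionomycin libraries. In the antibody table it was 0.581 to 0.994, below 1 in every library. Psmb10/Psmb7 ran from 2.37 to 6.56 in the subset table. In every subset library Psmb10 thus exceeded Psmb7.

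Within the ionomycin table the Psmb10/Psmb7 ratio was 0.544, 2.67 and 1.65 with vehicle and 0.607, 1.15 and 0.712 with ionomycin. Within the antibody table it was 1.03, 1.67 and 1.16 in medium, 1.25, 1.19 and 1.06 with anti-NKG2D and 1.08, 1.06 and 0.733 with anti-DNAM-1. The groups overlap in both tables. No group stood clear of another for this ratio.

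**Figure D2:**
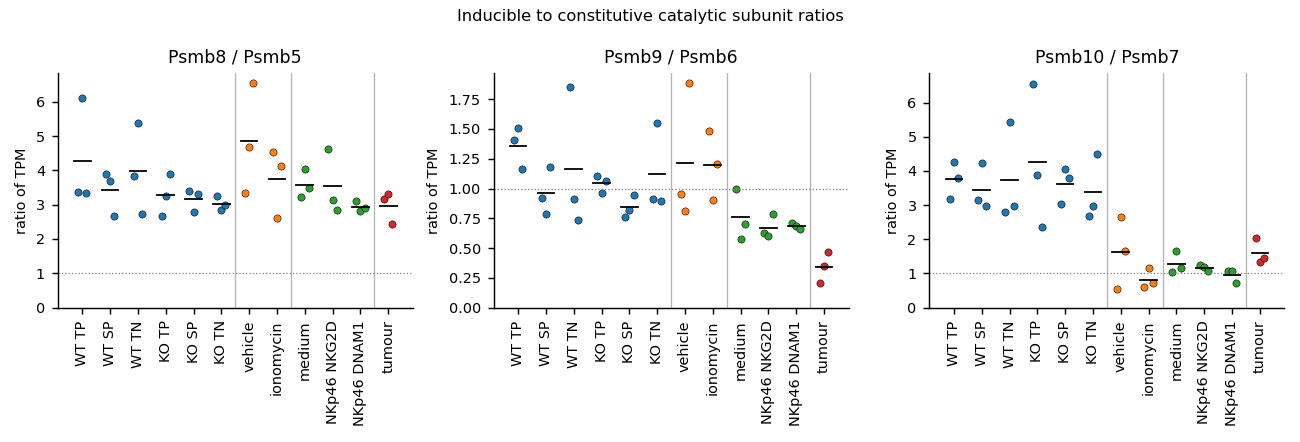
TPM ratio of each inducible catalytic subunit to its constitutive counterpart in all 36 libraries; points are libraries, black bars group means, colours and grey lines the 4 tables, and the dotted line a ratio of 1. Every Psmb8/Psmb5 point lies above 1, from 2.45 to 6.55, while Psmb9/Psmb6 lies on both sides of it.

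Whether the subsets that differ in inhibitory receptors differ in proteasome transcripts was tested within each genotype. Changes are on the scale of log2(TPM + 1), from limma with Benjamini-Hochberg adjustment over all genes of the table, with a call wherever the adjusted p was below 0.05. In WT cells none of the 49 genes was called between TN and TP (1.31% of all genes were), and 3 had an unadjusted p under 0.05 (12.5% of all genes). Between SP and TP none was called (0.191% of all genes), and 7 had an unadjusted p under 0.05 (7.71%). In bulk RNA fewer cells of a type and less RNA per cell cannot be told apart. B and plasma cell markers summed to 281 to 337 TPM in WT TN and 167 to 181 TPM in WT TP libraries, and their part was not tested. The median change over the 49 genes was -0.08 for TN and -0.00 for SP, beside -0.01 and -0.00 over all genes. The 95% confidence interval lay within a 2-fold change either way for 44 of the 49 genes in each comparison.

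The catalytic subunit Psmb8, which replaces Psmb5, was 304, 378 and 310 TPM in WT TP cells, 325, 314 and 323 in SP cells and 315, 263 and 250 in TN cells. Its TN minus TP difference was -0.26 (SE 0.118, adjusted p = 0.373), and the TN and TP libraries overlap. Psmb10, which replaces Psmb7, was 249, 323 and 300 TPM in TP cells, 230, 278 and 182 in SP cells and 192, 249 and 270 in TN cells. These groups overlap as well.

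Psmb9, which replaces Psmb6, was 176, 155 and 155 TPM in WT TP cells, 119, 127 and 141 in SP cells and 222, 127 and 114 in TN cells. All WT SP values lay below all TP values, at a difference of -0.33 (SE 0.184, adjusted p = 0.694). The same order was seen in B2m-/- mice, with 146, 137 and 146 TPM in TP cells and 121, 108 and 124 in SP cells, a difference of -0.28 (SE 0.184, adjusted p = 1.00). Neither difference passed the test. The TN libraries were spread across both ranges. Between SP and TP cells 5 of the 49 genes were higher and 4 lower without overlap in WT mice, and 2 and 2 in B2m-/- mice. The share over all genes was not computed. The B2m-/- TP libraries carried 404 to 683 TPM of B and plasma cell markers and 61.0 to 217 TPM of neutrophil markers. The B2m-/- SP libraries carried 197 to 227 and 0 to 5.85 TPM of them, and their part was not tested.

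The PA28 subunit Psme1 was 560, 558 and 627 TPM in WT TP cells, 510, 666 and 477 in SP cells and 563, 662 and 703 in TN cells. Psme2, its partner, was 216, 212 and 237 TPM in TP cells, 203, 190 and 298 in SP cells and 210, 201 and 162 in TN cells. The TN values of Psme2 lay below the TP values, and neither gene was called. Of the 49 genes 1 was higher and 2 were lower in TN than in TP cells without overlap. How often this held over all genes was not computed.

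Outside the inducible set, several of the larger positive differences between WT subsets were those of chaperones, whose levels are low and variable. For TN against TP the most positive value was 0.95 for Psmg4 (SE 0.346, adjusted p = 0.233), with overlapping groups, and the most negative -0.37 for Psmb3. With the replicate number as a block in limma, Psmg4 was not called either (adjusted p = 0.0655). For SP against TP the most positive value was that of Psmg3 at 0.94 (adjusted p = 0.456). Beside it stood Psmg4 at 0.82 (adjusted p = 0.576) and Psmg1 at 0.82 (adjusted p = 0.420), all 3 with no overlap between groups. They were among 5 of the 49 genes higher in SP cells without overlap, beside 4 lower. The share over all genes was not computed. The most negative was that of Psmg2 at -0.41. Psmg1 pairs with Psmg2, and Psmg3 with Psmg4, as chaperones of the alpha ring, so the members of the first pair had opposite signs and those of the second the same sign. Without WT SP replicate 3, however, Psmg2 was at 0.26.

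In B2m-/- cells no gene was called between TN and TP (0.524% of all genes were), and 2 had an unadjusted p under 0.05 (6.43%). Between SP and TP no gene was called (0.2%), and 0 had an unadjusted p under 0.05 (2.93%). Median changes were 0.00 and 0.03. The interval lay within 2-fold for 45 and 46 of the 49 genes. Both comparisons use the B2m-/- TP libraries, with 404 to 683 TPM of B and plasma cell markers and 61.0 to 217 TPM of neutrophil markers. The B2m-/- TN libraries had 216 to 237 and 0 to 0.39 TPM of them, and their part was not tested.

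The largest values for TN against TP in B2m-/- cells were 0.36 for Psmg4 and -0.88 for Psme2b (adjusted p = 0.155). Psme2b is a copy of Psme2 and reads may be split between them. For SP against TP they were 0.41 for Psme3ip1, which encodes a partner of the nuclear activator PA28 gamma, and -0.41 for Psmg3. The test of whether the TN minus TP difference itself differs between genotypes called none of the 49 genes (0.025% of all genes), with 2 at an unadjusted p under 0.05 (6.27%). Those were Psme2, at 0.49 (SE 0.217, adjusted p = 0.739), and the ubiquitin receptor Psmd4, a pair named after their values were seen. Here the extremes were Psme2 and Psmc3ip, the latter at -1.03.

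**Figure D3:**
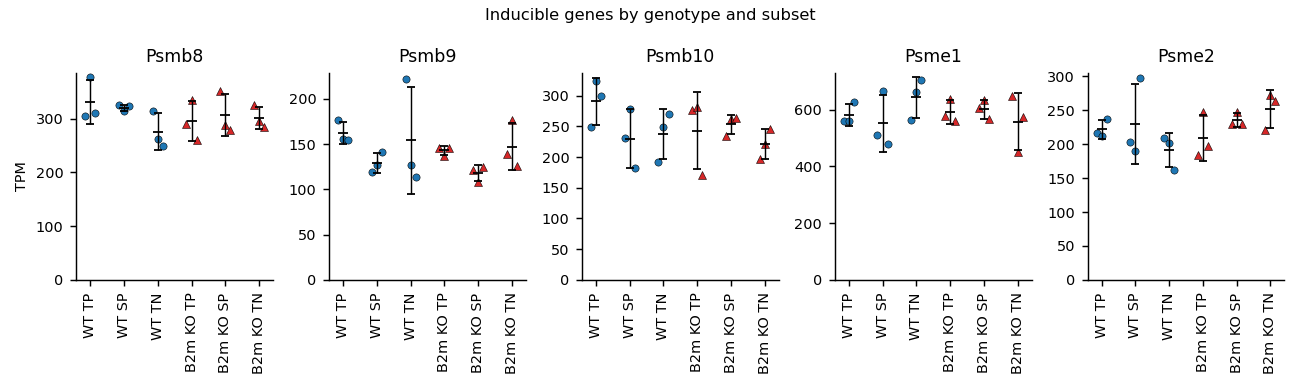
TPM of the 5 inducible genes by genotype and subset, from 0; points are libraries (circles WT, triangles B2m-/-), and bars show the mean and SD of 3 libraries. Most groups overlap; Psmb9 is lower in SP than in TP libraries in both genotypes, at 119 to 141 against 155 to 176 TPM in WT mice.

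Loss of B2m was checked at B2m itself, which was 2915 to 3420 TPM in the WT and 73.9 to 128 TPM in the B2m-/- libraries. Its change was -5.14 in the TP subset, -4.89 in the SP subset and -4.71 in the TN subset. None of the 49 genes was called in the TP subset (1.59% of all genes were), the SP subset (1.35%) or the TN subset (0.716%). In TP cells 4 genes had an unadjusted p under 0.05 (11.8% of all genes). SP cells had 3 such genes (11.7%) and TN cells 5 (10.5%). The median change was 0.02, 0.04 and -0.00, beside 0.04, 0.03 and 0.02 over all genes. The interval lay within 2-fold for 47, 43 and 45 genes. Without overlap, 5, 1 and 3 of the 49 genes were higher and 5, 5 and 2 lower in B2m-/- TP, SP and TN cells. The share over all genes was not computed. The B2m-/- TP libraries carried 61.0 to 217 TPM of neutrophil markers and 404 to 683 TPM of B and plasma cell markers, against 167 to 337 TPM of the latter in the other groups; their part in the TP values was not tested.

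The differences of the inducible genes lay between -0.28 and 0.02 in the TP subset, -0.13 and 0.16 in the SP subset and -0.21 and 0.40 in the TN subset, and none passed the test. Among B2m-/- libraries, TP cells had 290, 335 and 260 TPM of Psmb8, SP cells 351, 289 and 279 TPM and TN cells 325, 295 and 284 TPM. For Psmb10 TP cells had 277, 282 and 170 TPM, SP cells 235, 262 and 263 TPM and TN cells 197, 221 and 246 TPM. Both overlap their WT libraries in every subset. Psmb9, at 139, 176 and 126 TPM in TN cells, overlaps WT TN cells, and in TP cells all 3 B2m-/- values given above lay below the WT ones. Psme1 had 576, 638 and 558 TPM in TP cells, 604, 634 and 566 TPM in SP cells and 647, 452 and 575 TPM in TN cells. It overlaps the WT libraries in every subset. Psme2 had 184, 248 and 197 TPM in TP cells and 230, 248 and 230 TPM in SP cells, which overlap as well.

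Psme2 in TN cells gave the highest of these values. It was 221, 273 and 263 TPM in B2m-/- TN cells, all above the WT TN libraries, a difference of 0.40 (SE 0.153, adjusted p = 0.341). Its copy Psme2b was lower in every B2m-/- library, with 49.0, 36.6 and 52.7 TPM against 60.6, 55.5 and 94.9 TPM in WT TN cells, at -0.58. The summed level of both copies was 270, 309 and 316 TPM against 270, 257 and 257 TPM. The groups meet at 270 TPM once the copies are added.

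The nearest approach to a call was the alpha-ring chaperone Psmg1 (ENSMUSG00000022913) in SP cells. It was 25.5, 44.7 and 36.7 TPM in WT and 16.2, 13.5 and 17.7 TPM in B2m-/- SP cells, a difference of -1.10 (SE 0.270, adjusted p = 0.0556). Psmg3 was 26.6, 24.6 and 48.0 TPM in WT and 11.4, 15.4 and 15.2 TPM in B2m-/- SP cells, at -1.13 (SE 0.332, adjusted p = 0.127). For both chaperones the groups do not overlap, which held for 5 of the 49 genes in that direction. How many of all genes did so was not computed. All WT SP values of Psmg1 also lay above those of WT TP cells, at 15.6, 23.3 and 19.6 TPM. Psmg1 passed the test under quantile normalization (adjusted p = 0.04996) and without WT SP replicate 1 (-1.31, adjusted p = 0.0342).

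The other extremes were single values without a call. They were 0.70 for Psmc3ip and -0.35 for the catalytic subunit Psmb7 in TP cells, 0.77 for Psmc3ip in SP cells, and 0.47 for Psmb5 in TN cells. Psmc3ip in TP cells was at -0.10 without WT TP replicate 2. The ATPase Psmc4 and the lid subunits Psmd7, Psmd11 and Psmd14, which cleaves ubiquitin chains off the substrate, made up the 4 genes with an unadjusted p under 0.05 in TP cells, and each was higher in B2m-/- cells. They were named after their values were seen.

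Of 52 genes in 5 lists of proteasome cofactors, regulators of proteasome genes, ubiquitin and shuttle factors, regulators of the inducible subunits and the class I peptide pathway, 50 were tested. None was called between the subsets of either genotype or in the test between genotypes, against 0.025% to 1.31% of all genes. There 1 to 7 of the 50 had an unadjusted p under 0.05, against 2.93% to 12.5% of all genes. For B2m loss, 3 were called higher in TP cells and 2 in each other subset. B2m itself was the 1 gene called lower in each. Of all genes 1.59%, 1.35% and 0.716% were called in TP, SP and TN cells. There 10, 9 and 9 of the 50 had an unadjusted p under 0.05, against 11.8%, 11.7% and 10.5% of all genes. Calr, a chaperone that loads peptide onto class I, rose by 0.41 in the TP, 0.45 in the SP and 0.37 in the TN subset (adjusted p = 0.00527, 0.00242 and 0.0203), from 368 to 471 TPM in the 9 WT libraries to 518 to 651 TPM in the 9 B2m-/- libraries. Ifngr1, a chain of the interferon-gamma receptor, rose by 0.66, 0.74 and 0.63 (adjusted p = 0.000121, 4.21e-05 and 0.00034), from 494 to 589 TPM to 799 to 991 TPM. In both genes the genotypes do not overlap. The Calr call in TN cells was lost without any of 5 single libraries (adjusted p up to 0.0922). Nfya, a subunit of the CCAAT-binding factor NF-Y, rose in TP cells by 0.55 (adjusted p = 0.0441), from 54.7, 58.1 and 49.7 to 79.8, 82.3 and 77.6 TPM, a call lost without any single TP library (adjusted p up to 0.156).

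Ionomycin is used to raise intracellular calcium without a receptor. After 22 hours none of the 49 genes was called against vehicle with limma (2.91% of 14372 genes were), and 6 had an unadjusted p under 0.05 (15.1% of all genes), 2 higher and 4 lower. The median change was -0.28 over the 49 genes and -0.00 over all genes, and 11 of 49 values were positive against 49.7% of all genes. For 10 genes all ionomycin values lay below all vehicle values (9.57% of all genes), and for 2 all lay above (10.5%). The interval was wide: it lay within 2-fold for 25 of the 49 genes.

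Vehicle libraries differed strongly among themselves. The share of all TPM taken by the 49 genes was 0.686%, 0.571% and 0.463% in vehicle replicates 1 to 3, and 0.455% to 0.492% with ionomycin. Ifng was 27588, 2522 and 82.4 TPM in the vehicle libraries and 852 to 1556 TPM with ionomycin. So the vehicle replicates spread on both sides of the ionomycin libraries in Ifng, and their order in it matched that of the proteasome share; its part in the result was not tested. Without vehicle replicate 1 the median change over the 49 genes was -0.12 and 19 values were positive; without vehicle replicate 3 it was -0.41 with 6 positive.

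Among the catalytic subunits Psmb10 was 74.9, 177 and 109 TPM with vehicle and 54.4, 60.5 and 50.6 TPM with ionomycin. Every ionomycin value lay below every vehicle value, a difference of -1.03 (SE 0.325, adjusted p = 0.161) that was -0.71 without vehicle replicate 2 and -1.32 (adjusted p = 0.0791) without vehicle replicate 1. Psmb8 was 299, 307 and 258 TPM with vehicle and 232, 188 and 217 TPM with ionomycin, at -0.44 (SE 0.193, adjusted p = 0.331). These groups do not overlap either. Psmb9, in contrast, was 122, 153 and 117 TPM against 154, 106 and 139 TPM, at 0.02, with overlapping groups.

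For PA28, Psme1 was 471, 467 and 454 TPM with vehicle and 503, 332 and 395 TPM with ionomycin, at -0.20. Psme2 was 569, 430 and 219 TPM against 216, 262 and 309 TPM, at -0.54 (SE 0.341). Vehicle replicate 3, which with ionomycin replicate 3 carried the neutrophil markers, lay among the ionomycin libraries in Psme2. Without it the Psme2 difference was -0.93 (adjusted p = 0.111).

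Among constitutive members the ATPase Psmc5 (ENSMUSG00000020708) was 123, 81.2 and 45.6 TPM with vehicle and 38.9, 37.1 and 35.0 TPM with ionomycin, at -1.04 (SE 0.365, adjusted p = 0.214). Psmd12, a lid subunit, was 108, 93.8 and 78.5 TPM against 59.6, 70.2 and 52.5 TPM. Psmb4, a structural beta subunit, was 220, 168 and 185 TPM against 158, 118 and 134 TPM. In each the ionomycin libraries were the lower ones without overlap. The inhibitor Psmf1 was 44.8, 48.5 and 35.7 TPM against 29.3, 24.9 and 27.7 TPM, and Psma2, Psmd13, Psmb2 and Psmc2 completed the 10 with that order.

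By role, all 8 lid subunits had negative values, with a median of -0.39, and the structural beta subunits had a median of -0.40. The ATPases were at -0.23, the alpha ring at -0.19 and the chaperones at 0.14. Without vehicle replicate 1 the lid had 7 of 8 negative values and a median of -0.23, the structural beta subunits were at -0.26, the ATPases at -0.08, the alpha ring at -0.07 and the chaperones at -0.21. The largest positive value was that of the chaperone Psmg4, 2.20 (SE 0.817, adjusted p = 0.245), from 3.49, 1.43 and 25.2 TPM to 41.6, 19.8 and 30.6 TPM. Here again vehicle replicate 3 lay with the ionomycin libraries. The most negative was Psme2b, at -1.84, from 7.52, 16.6 and 44.0 TPM to 13.3, 1.43 and 3.20 TPM. Psme3ip1 was 53.5, 40.2 and 54.0 TPM with vehicle and 94.1, 60.3 and 78.6 TPM with ionomycin; it and the beta subunit Psmb1 were the 2 genes higher without overlap.

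Of the 50 pathway genes 2 were called, both higher (2.91% of all genes were called). Of the 50, 12 had an unadjusted p under 0.05 (15.1% of all genes). Stat3, a transcription factor that can drive proteasome subunit genes, rose by 1.43 (SE 0.183, adjusted p = 0.00688), from 844, 1075 and 967 TPM to 2339, 2788 and 2631 TPM. Rps27a, which encodes a fusion of ubiquitin and a ribosomal protein, rose by 0.76 (adjusted p = 0.0487), from 1209, 1108 and 1099 TPM to 1927, 1913 and 1932 TPM. The Stat3 call was lost without any 1 ionomycin library or vehicle replicate 2 (adjusted p up to 0.134), and the Rps27a call without any 1 ionomycin library or vehicle replicate 2 or 3 (up to 0.246).

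**Figure D4:**
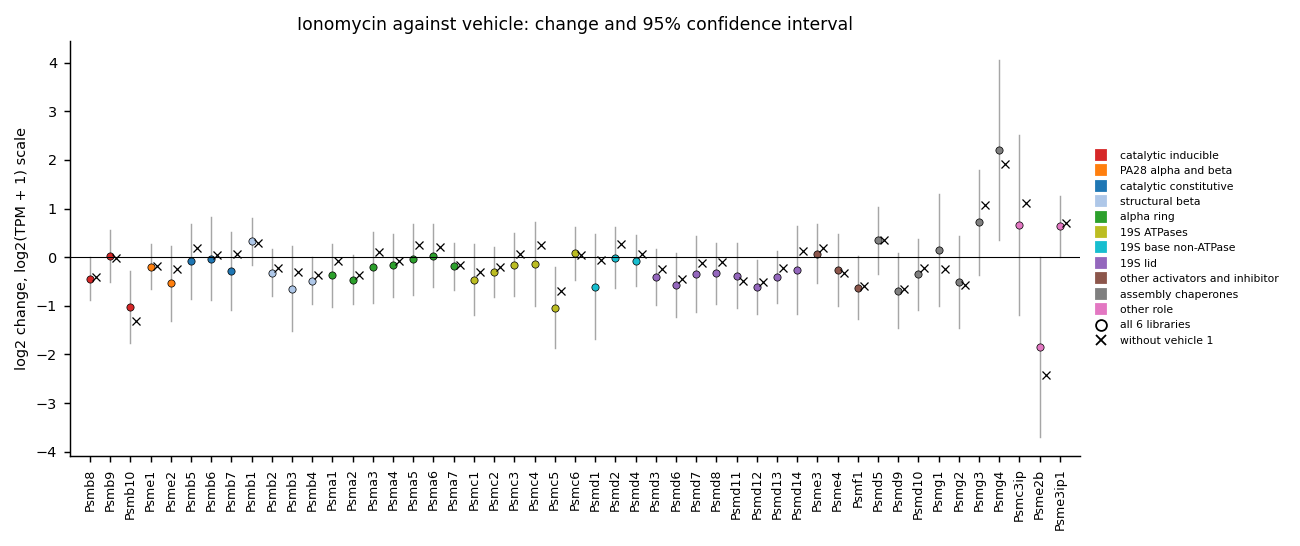
Change of each of the 49 genes with ionomycin against vehicle on the log2(TPM + 1) scale, grouped by role; circles use all 6 libraries, grey lines are 95% confidence intervals, and crosses leave out vehicle replicate 1. Most circles lie below 0 (median -0.28), and the crosses lie nearer to it (median -0.12).

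With antibodies to activating receptors, values against medium were mostly positive across the constitutive particle, with no gene called in the fit without pairing. Calls with the replicate number as a block are given in the closing section on processing. Against medium, limma called none of the 49 genes with anti-NKp46 and anti-NKG2D (0.431% of 13689 genes were), and 7 had an unadjusted p under 0.05 (15.1% of all genes), all higher. With anti-NKp46 and anti-DNAM-1 none was called (0.782%), and 12 had an unadjusted p under 0.05 (18.0% of all genes), all higher. The median change was 0.17 and 0.20 over the 49 genes and -0.04 over all genes in both comparisons. Positive values were found for 40 and 41 of 49 genes, against 45.6% and 45.9% of all genes. Both comparisons use the same 3 medium libraries.

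For 9 genes all anti-NKG2D values lay above all medium values (7.5% of all genes did), and for 0 all lay below (9.84%). With anti-DNAM-1 there were 16 above (9.46%) and 0 below (11.6%). The 9 genes were Psma1, Psma4, Psma7, Psmb1, Psmb7, Psmd2, Psmd6, Psmd7 and Psme3, and all 9 were among the 16. The other 7 were Psma3, Psmb2, Psmb5, Psmd1, Psmd4, Psme1 and Psmg3. The 49 genes took 0.588% to 0.624% of all TPM in medium, 0.645% to 0.714% with anti-NKG2D and 0.658% to 0.741% with anti-DNAM-1. More genes were above 0 in every antibody library than in any medium library, as given above, and the part of that in these results was not tested. B and plasma cell markers summed to 184 to 223 TPM in medium, 124 to 170 TPM with anti-NKG2D and 152 to 180 TPM with anti-DNAM-1, both lower than medium without overlap, with 4, 5 and 6 of the 8 markers above 0. T cell markers summed to 27.6 to 71.6, 20.8 to 28.6 and 20.1 to 39.6 TPM. The part of these markers was not tested either. If samples are grouped by their titles, the medians are 0.03 and 0.12, with 29 and 37 positive values, and 2 and 3 genes have an unadjusted p under 0.05.

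The alpha ring held the leading genes. Psma7 (ENSMUSG00000027566) was 118, 167 and 183 TPM in medium, 218, 248 and 253 TPM with anti-NKG2D and 228, 227 and 256 TPM with anti-DNAM-1. Its differences from medium were 0.64 (SE 0.156, adjusted p = 0.127) and 0.62 (adjusted p = 0.103). Psma4 (ENSMUSG00000032301) was 119, 118 and 169 TPM in medium, 184, 182 and 241 TPM with anti-NKG2D and 201, 197 and 230 TPM with anti-DNAM-1, at 0.58 (SE 0.165, adjusted p = 0.162) and 0.64 (adjusted p = 0.109). In both genes medium replicate 3 was the highest medium library, and every antibody library exceeded it. Without it, Psma4 passed the test with anti-NKG2D (0.75, adjusted p = 0.0449), and Psma7 (0.75, adjusted p = 0.0429) and Psma4 (0.81, adjusted p = 0.0322) passed with anti-DNAM-1. By titles Psma4 was at -0.02 and 0.36 and Psma7 at 0.23 and 0.34.

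Psma1 (ENSMUSG00000030751) was 138, 175 and 168 TPM in medium, 198, 226 and 254 TPM with anti-NKG2D and 193, 211 and 238 TPM with anti-DNAM-1. Its differences were 0.49 (SE 0.136, adjusted p = 0.155) and 0.42 (adjusted p = 0.166). The groups do not overlap; by titles the differences were 0.22 and 0.31. The promoters of Psma7 and Psma1 printed above both hold CCAAT, as 33.8% of all promoter windows do. The 15 genes found with it did not include Psma4 or Psmd6. In the whole ring 6 of 7 genes had positive values with anti-NKG2D and 7 of 7 with anti-DNAM-1, with medians of 0.17 and 0.28.

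In the regulatory particle the lid was positive throughout, in 8 of 8 genes in both comparisons, with medians of 0.21 and 0.31. Psmd6 (ENSMUSG00000021737), a lid subunit, was 51.7, 90.7 and 70.5 TPM in medium, 100, 95.1 and 110 TPM with anti-NKG2D and 107, 112 and 121 TPM with anti-DNAM-1. Its differences were 0.55 (SE 0.184, adjusted p = 0.217) and 0.70 (adjusted p = 0.114), with no overlap, and 0.27 and 0.25 by titles. The 3 non-ATPase base subunits were positive in both, with medians of 0.21 and 0.26. The ATPases had medians of 0.09 and 0.11, and the chaperones had medians of 0.08 and 0.10.

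Of the constitutive catalytic subunits, Psmb7 in both antibody groups and Psmb5 with anti-DNAM-1 lay above medium in every library, and Psmb6 did not. Psmb5 was 84.8, 78.4 and 82.8 TPM in medium, 79.8, 100 and 109 TPM with anti-NKG2D and 98.4, 121 and 113 TPM with anti-DNAM-1, the last group without overlap. Psmb7 was 107, 90.6 and 89.8 TPM in medium, 119, 114 and 128 TPM with anti-NKG2D and 109, 119 and 138 TPM with anti-DNAM-1. Both antibody groups lay above medium in Psmb7. Psmb6 was 119, 248 and 155 TPM in medium, 179, 159 and 153 TPM with anti-NKG2D and 172, 160 and 187 TPM with anti-DNAM-1, at -0.02 and 0.06, with overlapping groups. By titles Psmb7 was at -0.05 and 0.06.

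Psmb8 was 274, 316 and 289 TPM in medium, 369, 315 and 309 TPM with anti-NKG2D and 305, 341 and 327 TPM with anti-DNAM-1, at 0.17 and 0.15. Psmb9 was 119, 144 and 108 TPM in medium, 113, 95.9 and 119 TPM with anti-NKG2D and 122, 109 and 124 TPM with anti-DNAM-1, at -0.17 and -0.05. Psmb10 was 110, 151 and 104 TPM in medium, 148, 136 and 136 TPM with anti-NKG2D and 117, 126 and 101 TPM with anti-DNAM-1, at 0.21 and -0.07. All 3 inducible catalytic subunits overlap medium in both comparisons.

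Of the PA28 genes, Psme1 was 466, 466 and 488 TPM in medium, 497, 508 and 482 TPM with anti-NKG2D and 501, 505 and 514 TPM with anti-DNAM-1, at 0.07 and 0.10. Psme2 was 318, 426 and 568 TPM in medium, 357, 357 and 562 TPM with anti-NKG2D and 441, 488 and 540 TPM with anti-DNAM-1, at -0.03 and 0.20. Psme2 varied more between medium libraries than between groups. The largest positive value in each comparison was that of Psmc3ip, 1.52 and 1.87 (adjusted p = 0.388 and 0.252), which was 0.00, 4.09 and 13.6 TPM in medium and 8.78 to 18.5 TPM with antibodies. The most negative were -0.40 for the chaperone Psmd5 with anti-NKG2D and -0.33 for Psme2b with anti-DNAM-1.

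The antibody pairs were also set against each other. None of the 49 genes was called (0.0146% of all genes were), 0 had an unadjusted p under 0.05 (1.22%), and the median of anti-NKG2D minus anti-DNAM-1 was -0.03. By titles 3 genes had an unadjusted p under 0.05 and the median was -0.10. The interval lay within 2-fold for 44 of 49 genes. The extremes were 0.62 for Psme2b and -0.45 for Psmg3.

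Of the 50 pathway genes, 0 were called with anti-NKG2D (0.431% of all genes were), where 13 had an unadjusted p under 0.05 (15.1% of all genes). With anti-DNAM-1 limma called 2 (0.782% of all genes), of which 1 was higher and the other lower. There 12 of the 50 had an unadjusted p under 0.05 (18.0% of all genes). Pomp, the maturation factor that assembles the beta ring and is degraded by the new particle, was 270, 195 and 268 TPM in medium, 403, 370 and 497 TPM with anti-NKG2D and 420, 441 and 450 TPM with anti-DNAM-1. It rose with anti-DNAM-1 by 0.85 (SE 0.146, adjusted p = 0.0337), and its difference with anti-NKG2D was 0.80 (adjusted p = 0.0587). Without any 1 anti-DNAM-1 library or medium replicate 1 or 2 this call was lost, at adjusted p up to 0.171. By titles Pomp was at -0.17 with anti-NKG2D and 0.13 with anti-DNAM-1.

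**Figure D5:**
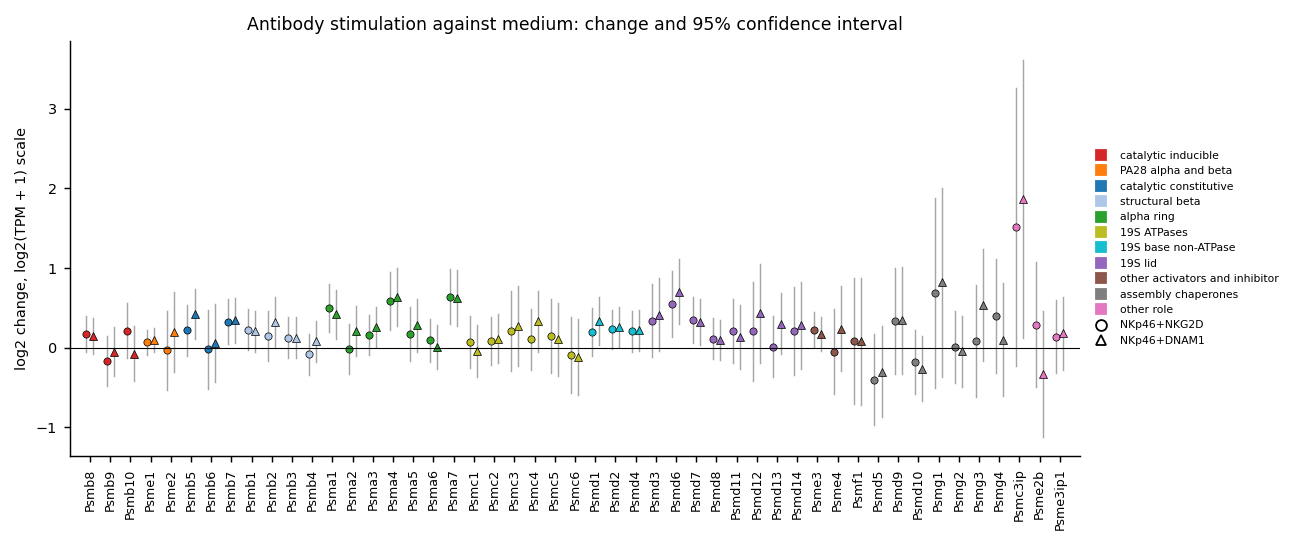
Change of each of the 49 genes against medium on the log2(TPM + 1) scale, grouped by role (colour); circles are anti-NKp46 with anti-NKG2D, triangles anti-NKp46 with anti-DNAM-1, and grey lines 95% confidence intervals. Most points lie above 0 (medians 0.17 and 0.20), with Psma1, Psma4, Psma7 and Psmd6 between 0.42 and 0.70.

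NK cells from tumours have no comparison group in their table, so their values are a description. Psme2 was 472, 503 and 431 TPM, Psme1 410, 390 and 479 TPM and Psmb8 206, 254 and 178 TPM, the 3 highest means of the 49 genes. The inducible genes as a set had a median of 212 TPM and the constitutive ones 87.3 TPM. Psmb10 was 116, 121 and 121 TPM, the most even of the inducible genes there.

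Psmb9 was the lowest inducible gene in tumour NK cells, at 43.2, 64.5 and 51.8 TPM. Its counterpart Psmb6 was 213, 186 and 112 TPM, which gave Psmb9/Psmb6 ratios of 0.203, 0.347 and 0.463, all below 1. Psmb5 was 65.3, 76.4 and 72.7 TPM and Psmb7 56.9, 90.5 and 84.0 TPM. Psmb8/Psmb5 was 3.16, 3.32 and 2.45, and Psmb10/Psmb7 was 2.04, 1.34 and 1.44. In these libraries Psmb9 alone of the 3 inducible catalytic subunits lay below its counterpart. Psmb9/Psmb6 was also below 1 in every library of the antibody table, those in medium included. Tumour epithelium and stroma markers summed to 39.3, 1026 and 832 TPM and erythroid markers to 0, 208 and 333 TPM, while markers of macrophages, monocytes and dendritic cells summed to 69.9, 24.7 and 18.8 TPM. All 3 libraries thus carried transcripts of other cells, and their part in these levels was not tested.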

How the data were processed

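The 4 tables hold TPM that the authors deposited; per the submitters' processing notes they used STAR, RSEM and build GRCm39, with no versions named. Per the labels' protocols, libraries were poly(A)-captured with the KAPA mRNA HyperPrep kit. The subset table lists 32940 rows and the others 56923. Genes with a mean TPM of at least 1 were tested, 12018 in the subset, 14372 in the ionomycin, 13689 in the antibody and 14023 in the tumour table. For 12 comparisons within tables, limma 3.58.1 (R 4.3.3) was run on log2(TPM + 1) with 1 mean per group and an intensity trend. The tests were two-sided, with Benjamini-Hochberg adjustment over all genes of the table; fold changes on this scale understate those of low genes. The script was tested on simulated data. Named are the 5 inducible genes, members and pathway genes called (but 1, not reported here), and the largest rise and fall where none was called. The members and lists were chosen with earlier results of these data known. Alternatives were another pseudocount, no filter, 2 other scalings, no trend, a replicate block, only the compared groups, titles and each library left out.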

Additional observations from a re-analysis of the deposited data

Results flagged for a closer look

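Psmc5, an ATPase of the regulatory particle, had values of opposite sign for B2m loss in 2 subsets, neither of them called. It was named after its values were seen. In SP cells it was 69.9, 75.4 and 78.6 TPM in WT and 64.2, 65.3 and 68.4 TPM in B2m-/- libraries, all lower (-0.176 on the log2 scale). With the replicate number as a block in limma, that SP value had an SE of 0.1605 and an adjusted p of 0.728. In TN cells Psmc5 was 54.8, 54.1 and 62.9 TPM in WT and 82.1, 82.5 and 72.3 TPM in B2m-/- libraries, all higher (0.46, SE 0.161, adjusted p = 0.289 with limma). In TP cells the genotypes overlap, at 69.4, 46.2 and 78.5 TPM in WT and 88.3, 70.6 and 66.8 TPM in B2m-/- libraries. The difference between SP and TN was not tested. Without overlap, 1 of the 49 genes was higher and 5 were lower in B2m-/- SP cells. In B2m-/- TN cells 3 were higher and 2 lower. The share over all genes was not computed.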

How the results depend on the processing

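Of 164 counts of called members under alternatives, 158 stayed at 0. With the replicate number as a block, 3 members were called with anti-NKG2D and 3 with anti-DNAM-1 (Psma1, Psma4 and Psma7 in both), and calls over all genes were 239 against 59 and 528 against 107. Whether same-numbered libraries were paired is not settled by the labels or by these values. In the antibody table the deviations of same-numbered libraries correlated at a mean of 0.064, from -0.003 to 0.169, over 0.1 in 1 of 9 pairs. Those of different numbers correlated at a mean of -0.032, from -0.0997 to 0.0482, over 0.1 in 0 of 18 pairs. Deviations from a group mean sum to 0 over its 3 libraries. The different-number values are therefore tied to the same-number ones and give no separate baseline. The same-numbered means were 0.010 and 0.062 in the subset and ionomycin tables. Quantile normalization called 1 member for B2m loss in SP cells. Leaving out 1 library gave 0 to 1 calls there, 0 to 1 with anti-NKG2D and 0 to 2 with anti-DNAM-1. It gave 3 to 342 calls over all genes for ionomycin, against 418.

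Of 981 values of named genes, 902 kept direction and side of the threshold, 44 lost the threshold, 13 passed it and 22 changed sign. Leaving out 1 library moved Psmg2 (WT SP against TP) between -0.93 and 0.26, Psmc3ip (B2m loss in TP cells) between -0.10 and 1.24 and Psmb9 (ionomycin) between -0.0945 and 0.173. With anti-NKG2D it moved Psme2 between -0.25 and 0.17, and with anti-DNAM-1 Psmb9 between -0.141 and 0.0647, Psmb10 between -0.175 and 0.0916 and Psme2 between -0.0119 and 0.406. Median-of-ratios scaling put Psme2 at 0.0384 with anti-NKG2D and Psmb9 at 0.0167 with anti-DNAM-1. Grouping by titles put Psme2 at 0.19, Psma4 at -0.0195, Psmb7 at -0.0533 and Pomp at -0.17 with anti-NKG2D, and Psmb8 at -0.0272 and Psme2b at 0.0871 with anti-DNAM-1. The cause of these changes was not tested. With 3 libraries a group and no depth in TPM, small differences could not be resolved, least of all for the chaperones and Psmc3ip.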
